A study of Drosophila melanogaster with 12 samples.

Results

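RPA2, RfC4, PolZ1, Caf1-55, Rca1 and Skp2, 6 genes that act in copying DNA, packing it into chromatin and driving the cell cycle, were followed across 4 groups of Drosophila melanogaster embryos. They are 6 of the 131 genes that could be named on an array of 13966 gene probe sets, and were found because the identifier of a probe set is listed as a synonym of the gene in a RefSeq gene table. Among several probe sets of a gene, 1 was to be chosen by its mean over all 12 arrays, the highest being kept. Each of the 6 genes matched a single probe set, so that measured value decided nothing here. All 6 had intensities high enough to be tested. The genes themselves were put together by their known roles, with earlier results of these data in view.

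The groups were X-ray treated embryos at stages 13 to 15, control embryos at stages 13 to 15, X-ray treated embryos at stages 9 to 11 and control embryos at stages 9 to 11, with 3 arrays each. The titles call the earlier stages sensitive and the later ones resistant. All embryos were of the C-S strain, and the treated ones were taken 15 to 20 minutes after X-rays. The dose, the number of embryos per array and whether same-group arrays came from separate collections are not stated in the labels used here, so p-values measure the spread between these arrays, part of which may be technical.

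A cell must copy its genome, load the new DNA with histones and then pass through mitosis once per cycle. During replication, single-stranded DNA is coated by replication protein A, a clamp loader places the sliding clamp on the template, and specialised polymerases can copy past damaged bases. Chromatin assembly factor 1 deposits histones behind the fork, and ubiquitin ligases remove cyclins and cyclin-dependent kinase inhibitors to move the cycle forward. In the fly embryo, most epidermal cells end their divisions and stop in G1 around the middle of embryogenesis, while the nervous system keeps dividing longer and many larval tissues switch to cycles of DNA synthesis without mitosis.

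Values are intensities on a linear scale, deposited with all arrays scaled to a common mean. They show the share of a transcript in total RNA from whole embryos, where fewer cells expressing a gene and less RNA per cell cannot be told apart. Log2 differences are of the intensity plus a pseudocount of 13.3, with a standard error (SE) from limma fitted to 10139 probe sets, and a gene is called changed at an adjusted p under 0.05. The stage labels were set against the marker genes that could be named, 2 of 40 on 6 lists. The segment polarity gene en was lower at stages 13 to 15, with 69.0 ± 13.3 against 310 ± 43.3 at stages 9 to 11 in control embryos (SD, n = 3 each). The tubulin gene betaTub60D, used in forming muscle, was higher, with 633 ± 130 against 91.0 ± 6.01. Both passed the test, with adjusted p values of 3.26e-05 and 9.94e-08. Array controls moved with the replicate number in the titles. For the middle probe set of the spike-in BioB, arrays with number 1 gave 1376 to 1533. Those with number 2 gave 425 to 738, and those with number 3 gave 226 to 299. The 5′ over 3′ ratio of eIF-4a, which falls as RNA breaks down or labelled copies get shorter, was at least 0.140 on the arrays with number 3 and at most 0.0798 on the others. Since all 4 groups have an array of each number, differences within each number are given beside the results.

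The first question was how the genes differ between stages 13 to 15 and stages 9 to 11. RPA2, RfC4, Caf1-55 and Rca1 fell in X-ray treated and in control embryos alike, by about 2-fold to 5-fold in intensity plus the pseudocount. The folds given with log2 differences below are on that scale. Mean intensity itself was lower by 1.99-fold (Caf1-55) to 6.02-fold (RPA2) in X-ray treated embryos. In control embryos it was lower by 2.59-fold (RfC4) to 5.85-fold (RPA2). For each of the 4 genes, all 6 later arrays read below all 6 earlier arrays. PolZ1 and Skp2 had lower means at the later stages but did not pass the test in either treatment. With the replicate number as a block, Skp2 passed in both treatments and PolZ1 in X-ray treated embryos. The calls covered 4 of 6 genes in X-ray treated embryos, where 11.6% of all tested probe sets were called lower, and 4 of 6 in control embryos, where 14.5% were. Both comparisons called the same 4 genes, against 9.1% of all tested probe sets called lower in both.

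**Figure D1:**
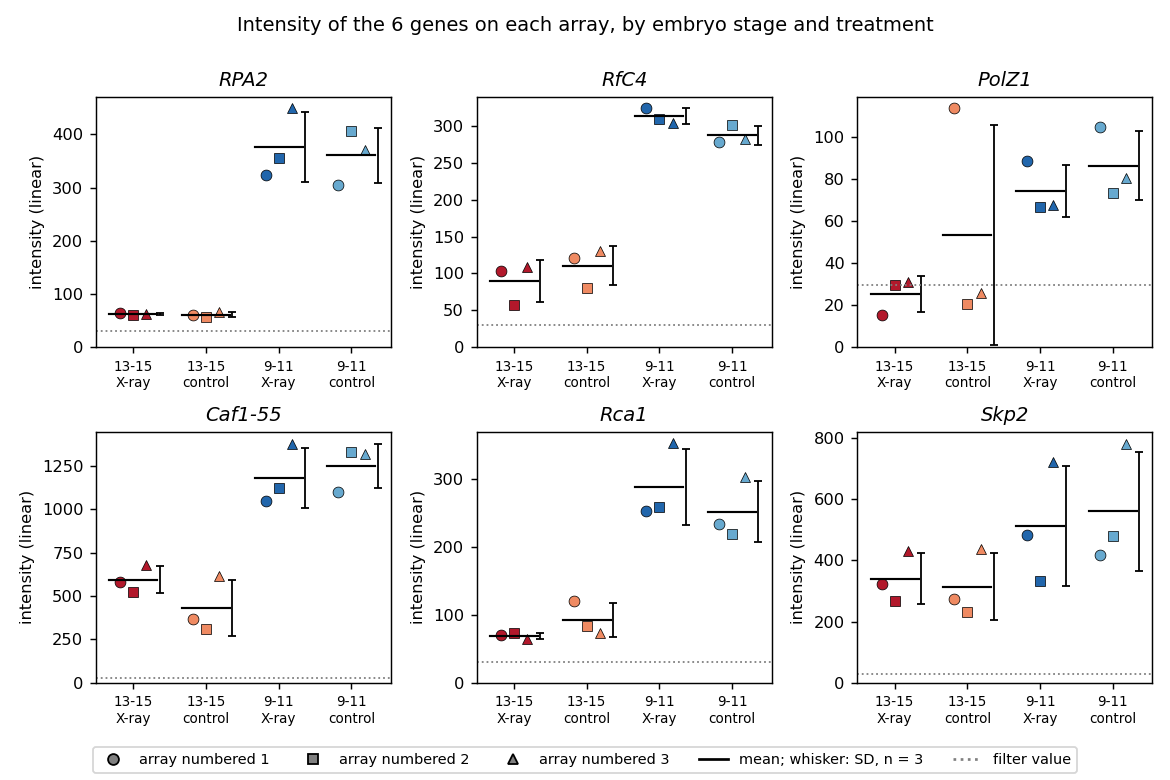
Intensity (linear scale) of each of the 6 genes on the 12 arrays, by stage and treatment, with the group mean as a line, the SD as a whisker (n = 3) and the replicate number as the symbol. The 6 arrays of stages 13 to 15 lie below the 6 of stages 9 to 11 for RPA2, RfC4, Caf1-55 and Rca1, while the groups overlap for Skp2 and, through 1 control array at 113.7, for PolZ1.

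RPA2 encodes the middle subunit of replication protein A, the complex that coats single-stranded DNA in replication and repair. In X-ray treated embryos it read 64.3, 61.4 and 61.7 at stages 13 to 15, against 322.9, 356.3 and 449.6 at stages 9 to 11. In control embryos it read 60.9, 57.4 and 66.5 at stages 13 to 15, against 304.6, 406.7 and 369.5 at stages 9 to 11. The later arrays form a tight band, far below the lowest earlier array. The mean at the later stages was 16.6% of that at the earlier stages in X-ray treated embryos and 17.1% in control embryos. The log2 difference was −2.35 ± 0.19 in X-ray treated embryos (SE, adjusted p = 7.65e-07) and −2.31 ± 0.19 in control embryos (adjusted p = 8.91e-07), a 5.10-fold and a 4.96-fold fall on that scale. Counted from the lowest log2 difference, RPA2 ranked 74 of 10139 tested probe sets in X-ray treated embryos and 76 in control embryos. The difference within numbers 1, 2 and 3 was −2.12, −2.31 and −2.63 in X-ray treated embryos, and −2.10, −2.57 and −2.26 in control embryos.

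RfC4 encodes a subunit of replication factor C, the clamp loader that places the sliding clamp PCNA on DNA. In X-ray treated embryos it read 103.3, 57.3 and 108.8 at stages 13 to 15, against 324.8, 309.3 and 304.2 at stages 9 to 11. In control embryos it read 121.6, 80.3 and 130.2 at stages 13 to 15, against 278.2, 301.6 and 281.8 at stages 9 to 11. The earlier arrays agreed closely, and the later arrays numbered 2 were the lowest in both treatments. RfC4 fell 3.25-fold in X-ray treated embryos (log2 difference −1.70 ± 0.23, adjusted p = 7.63e-05) and 2.46-fold in control embryos (−1.30 ± 0.23, adjusted p = 0.000589). Its log2 difference within numbers 1, 2 and 3 was −1.54, −2.19 and −1.38 in X-ray treated embryos, and −1.11, −1.75 and −1.04 in control embryos. The spread of RfC4 within groups was larger at stages 13 to 15, with an SD of 28.3 and 26.7, than at stages 9 to 11, with 10.7 and 12.6, although its level was lower there.

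Caf1-55 encodes a histone-binding protein of chromatin assembly factor 1 that also serves in the NURF remodeller and in Polycomb complexes. In X-ray treated embryos it read 580.6, 524.1 and 676.7 at stages 13 to 15, against 1045.5, 1119.8 and 1372.2 at stages 9 to 11. In control embryos it read 366.5, 308.9 and 612.6 at stages 13 to 15, against 1100.8, 1326.8 and 1318.0 at stages 9 to 11. The groups were separate in both treatments, and the control arrays of stages 13 to 15 were more spread than those of the other groups in proportion to their mean. Caf1-55 fell 1.96-fold in X-ray treated embryos (log2 difference −0.97 ± 0.22, adjusted p = 0.00377) and 2.96-fold in control embryos (−1.57 ± 0.22, adjusted p = 7.30e-05). Within numbers 1, 2 and 3 the log2 difference was −0.83, −1.08 and −1.01 in X-ray treated embryos, and −1.55, −2.06 and −1.09 in control embryos.

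Rca1 encodes an inhibitor of the anaphase-promoting complex in its Fzr-bound form, and so keeps cyclin A from being degraded before mitosis. In X-ray treated embryos it read 70.5, 72.8 and 64.2 at stages 13 to 15, against 253.4, 259.9 and 353.6 at stages 9 to 11. In control embryos it read 120.9, 83.6 and 72.9 at stages 13 to 15, against 233.9, 219.6 and 304.0 at stages 9 to 11. The earlier array numbered 3 was the highest in both treatments, and the later arrays numbered 3 were the lowest. Rca1 fell 3.63-fold in X-ray treated embryos (log2 difference −1.86 ± 0.22, adjusted p = 2.71e-05) and 2.54-fold in control embryos (−1.34 ± 0.22, adjusted p = 0.000352). Split by number, 1 to 3, the log2 difference was −1.67, −1.67 and −2.24 in X-ray treated embryos, and −0.88, −1.27 and −1.88 in control embryos.

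Skp2 encodes the F-box protein that gives an SCF ubiquitin ligase its targets, among them cyclin-dependent kinase inhibitors. In X-ray treated embryos it read 322.1, 268.0 and 430.8 at stages 13 to 15, against 483.8, 331.5 and 722.0 at stages 9 to 11. In control embryos it read 274.0, 231.5 and 437.9 at stages 13 to 15, against 418.7, 480.8 and 782.0 at stages 9 to 11. The stages overlapped in both treatments, because the later arrays numbered 3 read as high as some earlier arrays of other numbers. The log2 difference was −0.53 ± 0.30 in X-ray treated embryos (SE, adjusted p = 0.238) and −0.81 ± 0.30 in control embryos (adjusted p = 0.0606), neither past the threshold. Its 95% intervals, −1.17 to 0.11 and −1.45 to −0.16, allow a fall of more than 2-fold. Within numbers 1, 2 and 3 the difference was −0.57, −0.29 and −0.73 in X-ray treated embryos, and −0.59, −1.01 and −0.82 in control embryos. The later array was the lower one in 6 of 6 pairs of same-numbered arrays. How many of all tested probe sets show this was not counted. Across stages, the lowest correlation of same-numbered arrays was 0.0387, so these pairs are not established. With the replicate number as a block in limma, Skp2 passed in X-ray treated embryos (adjusted p = 0.0156) and in control embryos (adjusted p = 0.00088), at the same log2 differences and an SE of 0.15. The difference in control embryos passed the threshold without control array 3 of stages 13 to 15 (log2 difference −1.06, adjusted p = 0.0217), without X-ray array 2 or 3 of stages 9 to 11 (adjusted p = 0.0451 and 0.0382) and without control array 1 of stages 9 to 11 (−0.99, adjusted p = 0.0453). Over all fits without 1 array it was −1.06 to −0.55 in control embryos, with an adjusted p of up to 0.249. The value in X-ray treated embryos was −0.25 without X-ray array 3 of stages 9 to 11 and −0.80 without X-ray array 2 of those stages (adjusted p = 0.625 and 0.0894).

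PolZ1 encodes the catalytic subunit of DNA polymerase zeta, which extends DNA past damaged bases, and read low at the later stages on most arrays. In X-ray treated embryos it read 15.3, 29.5 and 31.3 at stages 13 to 15, against 88.7, 66.8 and 67.9 at stages 9 to 11. In control embryos it read 113.7, 20.5 and 25.7 at stages 13 to 15, against 105.0, 73.5 and 80.8 at stages 9 to 11. The groups were separate in X-ray treated embryos, while 1 control array of stages 13 to 15, numbered 1, read higher than every other array of this gene. Apart from that array, 4 of the 5 later values lay below the filter value of 29.9. That value is the 40th percentile of the table, not a measured background. PolZ1 entered the test through the earlier arrays, all above that value, so the filter favours a fall for this gene. The log2 difference was −1.20 ± 0.42 in X-ray treated embryos (SE, adjusted p = 0.0525) and −0.84 ± 0.42 in control embryos (adjusted p = 0.164). With the replicate number as a block the adjusted p was 0.0406 in X-ray treated embryos and 0.135 in control embryos. Both sizes depend on the pseudocount: with 4 times the pseudocount they were −0.70 in X-ray treated and −0.49 in control embryos, and with 0.25 times it −1.48 in X-ray treated and −1.04 in control embryos, none of them past the threshold. Single arrays moved the value in control embryos both ways. It was −0.49 without control array 2 of stages 13 to 15 (adjusted p = 0.482). Without the high control array it was −1.45 (adjusted p = 0.00638), and in X-ray treated embryos, where the value stayed at −1.20, the smaller spread gave an adjusted p of 0.00936. Leaving out control array 2 or 3 of stages 13 to 15 also brought the X-ray treated embryos past the threshold (adjusted p = 0.0389 and 0.0483), and over all fits without 1 array the adjusted p there was 0.00936 to 0.17. Within numbers 1, 2 and 3 the difference was −1.83, −0.90 and −0.86 in X-ray treated embryos, and 0.10, −1.36 and −1.27 in control embryos.

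**Figure D2:**
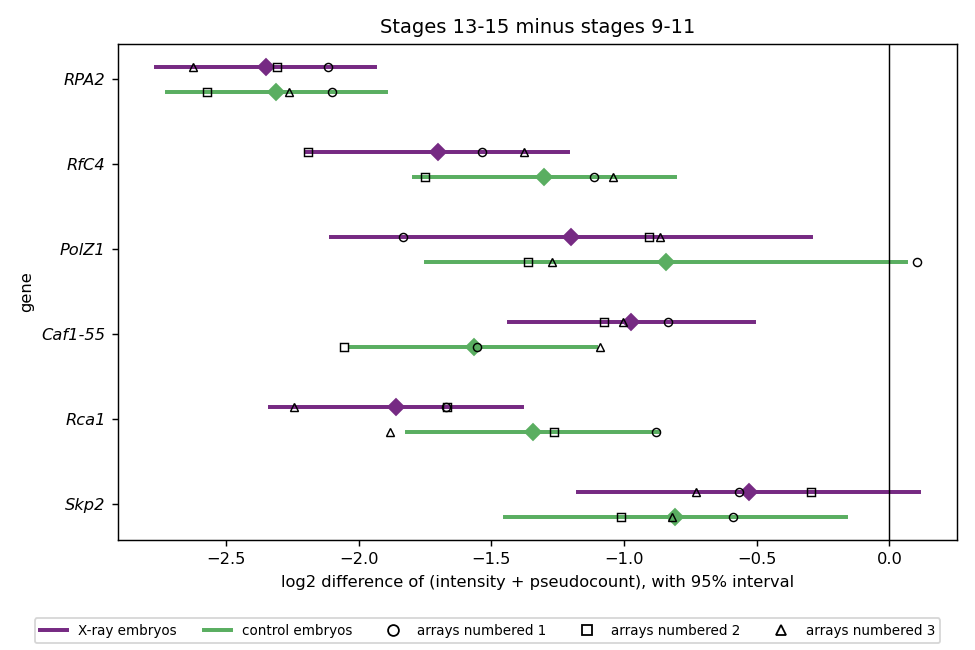
Log2 difference of (intensity + pseudocount), stages 13 to 15 minus stages 9 to 11, for each gene in X-ray treated and control embryos, with the 95% interval from limma as a bar and the difference within each replicate number as an open symbol. RPA2 lies near −2.3 in both treatments, and the intervals of PolZ1 in control embryos and of Skp2 in X-ray treated embryos include 0.

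Among themselves the genes spanned a wide range of stage differences. RPA2 had the lowest value of the 6 in each of the 6 combinations of treatment and replicate number, and Skp2 the highest in 5 of them, with PolZ1 highest in control arrays numbered 1. The 95% interval of RPA2 in X-ray treated embryos, −2.76 to −1.94, did not overlap those of Caf1-55 (−1.43 to −0.51) or Skp2 (−1.17 to 0.11). In control embryos the interval of RPA2, −2.72 to −1.90, overlapped that of Caf1-55 (−2.03 to −1.10) but not that of Skp2 (−1.45 to −0.16). The median over the 6 genes was −1.45 in X-ray treated embryos and −1.32 in control embryos, beside −0.02 and 0.05 over all tested probe sets. All 6 had negative values in both treatments, as did 51.7% of all tested probe sets in X-ray treated embryos and 47.2% in control embryos. PolZ1 passed the filter only through the earlier arrays, which favours a negative value for it.

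**Figure D3:**
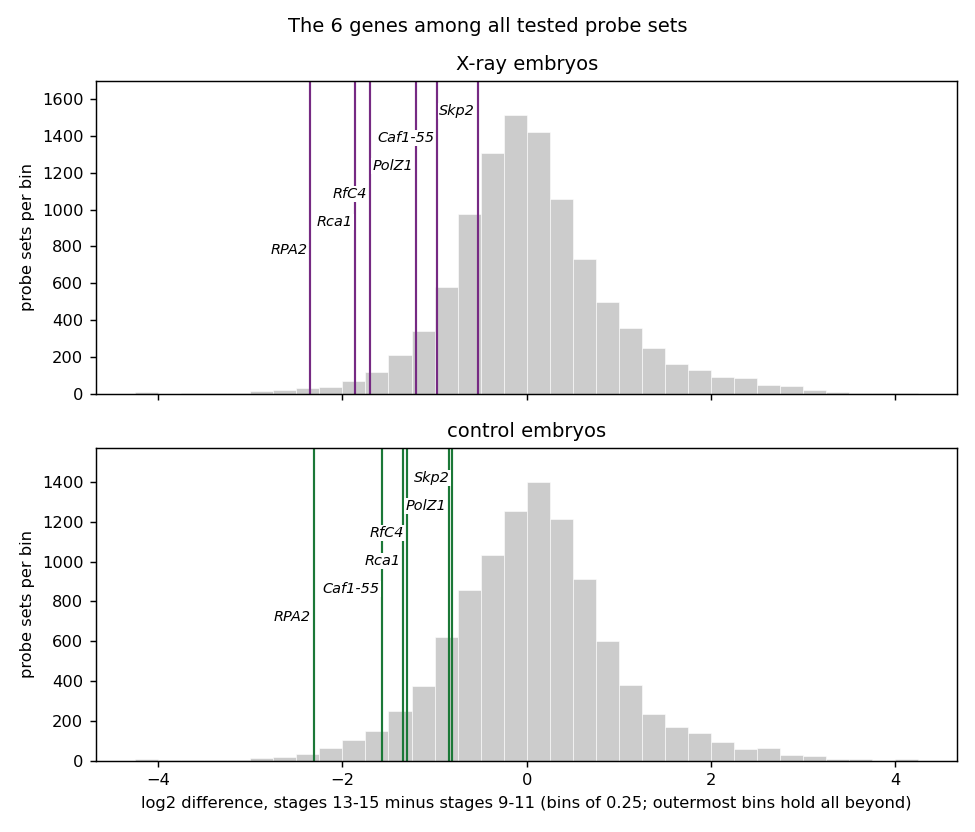
Number of tested probe sets in each bin of 0.25 of the log2 difference, stages 13 to 15 minus stages 9 to 11, in X-ray treated embryos (upper) and control embryos (lower), with a line at each of the 6 genes. All 6 lines lie left of 0, with RPA2 in the left tail of the distribution and Skp2 within its bulk in X-ray treated embryos.

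Complete separation of the 6 later from the 6 earlier arrays, seen for 4 of the 6 genes, was found downward in 12.4% of all tested probe sets. Within a treatment, the later arrays were all below the earlier ones for 5 of the 6 genes in X-ray treated embryos, against 19.7% of probe sets, and for 4 of the 6 in control embryos, against 20.9%. The 5 include PolZ1, above the filter value on 3 of 3 arrays in each earlier group and 1 of 3 in each later group. It was tested because of the earlier arrays, so its lower later values are not separate support. Of the other 101 named genes that were tested, 17 were called lower in X-ray treated embryos, 24 in control embryos and 15 in both. The lists of replication, repair, chromatin assembly and cell cycle genes held 123 genes, and the 6 described here were the only ones whose probe sets could be named. How the remaining genes of these pathways moved was not analysed here.

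The next question was whether X-rays changed the same genes within 15 to 20 minutes. None of the 6 passed in either window. At stages 9 to 11 the count was 0 of 6 in limma, with 0 of 6 at an unadjusted p under 0.05, where 0.0197% of all tested probe sets were called and 3.08% had such an unadjusted p. At stages 13 to 15 it was 0 of 6, with 1 of 6 at an unadjusted p under 0.05, where 0% were called and 4.96% had such an unadjusted p. The median log2 difference over the 6 genes was −0.01 at stages 9 to 11 and −0.13 at stages 13 to 15, beside 0.01 and 0.00 over all tested probe sets.

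RPA2, whose product is loaded onto resected DNA breaks, was almost level between treatments at both ages. At stages 9 to 11 it averaged 376 ± 65.7 in X-ray treated embryos and 360 ± 51.7 in control embryos, and at stages 13 to 15 it averaged 62.5 ± 1.59 in X-ray treated and 61.6 ± 4.59 in control embryos (SD, n = 3 each). The log2 difference was 0.06 ± 0.19 at stages 9 to 11 and 0.02 ± 0.19 at stages 13 to 15 (SE, adjusted p = 1.00 each). Their 95% intervals, −0.36 to 0.47 at stages 9 to 11 and −0.39 to 0.43 at stages 13 to 15, leave out a change of 1.5-fold in either direction. These intervals use a spread shared by all 4 groups. With the 2 compared groups alone, the SE at stages 13 to 15 was 0.30, too wide to leave out a rise of 1.5-fold.

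Caf1-55 had the 1 unadjusted p under 0.05. At stages 13 to 15 it averaged 594 ± 77.2 in X-ray treated embryos and 429 ± 161 in control embryos, and the groups overlapped. The log2 difference of 0.51 ± 0.22 (SE) had an unadjusted p of 0.0330 and an adjusted p of 0.985. Within numbers 1, 2 and 3 it was 0.65, 0.74 and 0.14, so the treated array was the higher one in 3 of 3 pairs. How many of all tested probe sets have 1 sign in every pair was not counted. At stages 9 to 11 the averages were 1179 ± 171 in X-ray treated embryos and 1249 ± 128 in control embryos, a log2 difference of −0.09 ± 0.22 (adjusted p = 1.00).

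RfC4 and Rca1 had positive values at stages 9 to 11 and negative ones at stages 13 to 15. RfC4 averaged 313 ± 10.7 in X-ray treated embryos and 287 ± 12.6 in control embryos at stages 9 to 11, where every treated array read above every control array (304.2 to 324.8, against 278.2 to 301.6). The size was a log2 difference of 0.12 ± 0.23 (SE, adjusted p = 1.00), and 7.14% of all tested probe sets had groups that did not overlap in this comparison. At stages 13 to 15 RfC4 averaged 89.8 ± 28.3 in X-ray treated embryos and 111 ± 26.7 in control embryos (log2 difference −0.28 ± 0.23, adjusted p = 1.00). Rca1 averaged 289 ± 56.1 in X-ray treated embryos and 253 ± 45.2 in control embryos at stages 9 to 11 (0.18 ± 0.22, adjusted p = 1.00). At stages 13 to 15 it averaged 69.2 ± 4.45 in X-ray treated embryos and 92.5 ± 25.2 in control embryos (−0.33 ± 0.22, adjusted p = 1.00). There its groups did not overlap, with 64.2 to 72.8 against 72.9 to 120.9, a gap of 0.1 in intensity, and 9.29% of all tested probe sets were separate in this comparison.

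Skp2 and PolZ1 varied most between arrays of a group, and their intervals for X-rays were the widest. Skp2 averaged 512 ± 197 in X-ray treated embryos and 561 ± 194 in control embryos at stages 9 to 11, and 340 ± 82.9 in X-ray treated and 314 ± 109 in control embryos at stages 13 to 15. Its log2 difference was −0.14 ± 0.30 at stages 9 to 11 and 0.13 ± 0.30 at stages 13 to 15 (SE, adjusted p = 1.00 each). PolZ1 averaged 74.5 ± 12.3 in X-ray treated embryos and 86.4 ± 16.5 in control embryos at stages 9 to 11, a log2 difference of −0.18 ± 0.42, with a 95% interval of −1.09 to 0.72. At stages 13 to 15 it averaged 25.4 ± 8.76 in X-ray treated embryos and 53.3 ± 52.4 in control embryos, a log2 difference of −0.54 ± 0.42 (adjusted p = 1.00). Without the control array at 113.7 that value was 0.06.

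**Figure D4:**
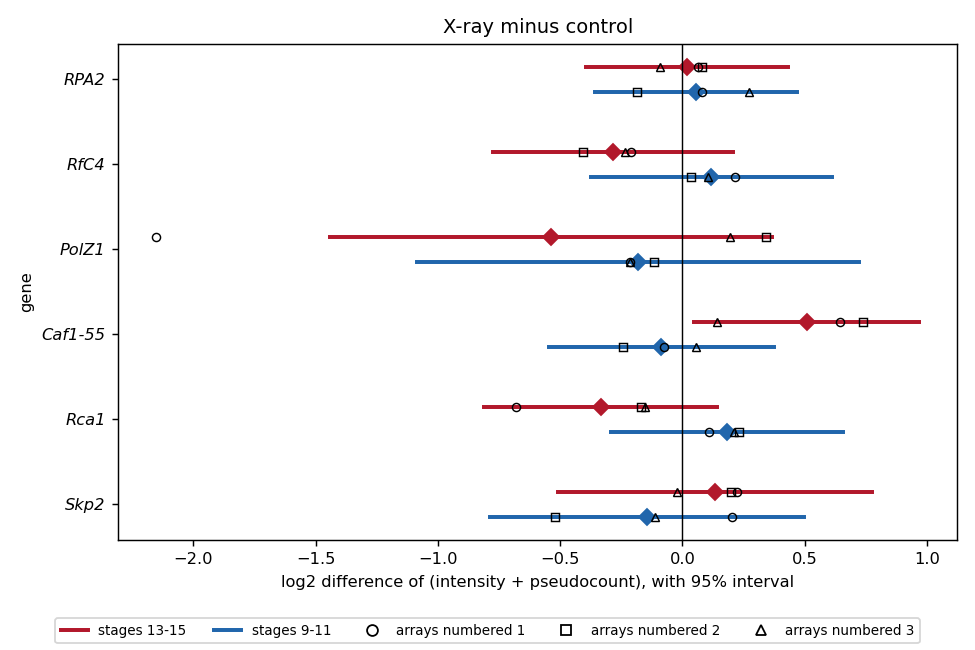
Log2 difference of (intensity + pseudocount), X-ray treated minus control embryos, for each gene at stages 13 to 15 and at stages 9 to 11, with the 95% interval from limma as a bar and the difference within each replicate number as an open symbol. Every interval includes 0 except that of Caf1-55 at stages 13 to 15, which runs from 0.05 to 0.97 before adjustment for the number of probe sets tested.

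The windows were compared in their response to X-rays as the effect at stages 13 to 15 minus that at stages 9 to 11. The same contrast asks whether the stage difference is the same in X-ray treated and in control embryos. It passed for 0 of the 6 genes in limma, with 0 of 6 at an unadjusted p under 0.05, where 0.0197% of all tested probe sets were called and 4.54% had such an unadjusted p. The values furthest from 0 were those of Caf1-55, 0.59 ± 0.31 (SE, 95% interval −0.06 to 1.25, adjusted p = 0.995), and of Rca1, −0.52 ± 0.32 (−1.19 to 0.16, adjusted p = 0.995). RfC4 had −0.40 ± 0.33, PolZ1 −0.36 ± 0.60, Skp2 0.28 ± 0.43 and RPA2 −0.04 ± 0.27. For Caf1-55, whose fall with stage was 1.96-fold in X-ray treated and 2.96-fold in control embryos, the interval of the difference includes 0, and a larger effect of X-rays at the later stages is within it.

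The replicate number in the titles accounted for much of the spread of some of these genes. Skp2 read highest on the array numbered 3 in 4 of 4 groups, and lowest on that numbered 2 in 3 of 4. Of its sum of squares within groups, 89.9% lay between the numbers, a share above that of most tested probe sets (percentile 97.9). Caf1-55 followed with 61% (percentile 81.5) and its highest array numbered 3 in 3 of 4 groups. The share was 42.2% for RfC4 (percentile 62.5), 36.2% for RPA2 (55.4), 24.2% for PolZ1 (38.6) and 9.49% for Rca1 (15.6). Averaged over the groups, Skp2 lay 0.49 above its group mean on arrays numbered 3, and −0.34 and −0.14 from it on those numbered 2 and 1 (log2). These are the arrays with the lowest BioB signal and the highest eIF-4a ratio, whose part in the Skp2 values was not tested. The residual SD within groups was 0.16 for RPA2, lower than for all but 4.78% of tested probe sets, and 0.57 for PolZ1 (percentile 74.7).

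**Figure D5:**
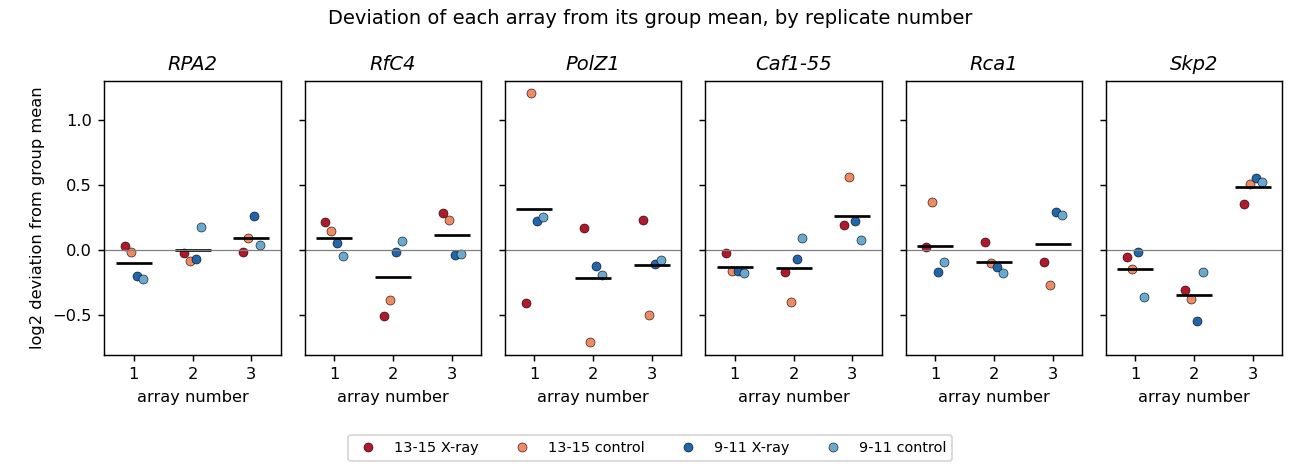
Log2 deviation of each array from its own group's mean, by replicate number, for the 6 genes, with a point per group and a dash at the mean over the 4 groups. All 4 Skp2 points of number 3 lie above 0, at a mean of 0.49, and the single high PolZ1 point is control array 1 of stages 13 to 15.

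The pattern of each gene over the 12 arrays was compared with that of the other 101 named genes, by the root-mean-square difference of log2 values after centring each gene on its own mean. This is a description over arrays that fall into a pair of stages, so genes with a similar stage difference come out as alike. A similar pattern over the replicate numbers also brings genes closer. Its part was not tested, for Skp2 in particular, with 89.9% of its sum of squares within groups between the numbers. RPA2 was nearest to CG3036 (0.29), CG18853 (0.43) and Sps1, a selenophosphate synthetase homologue (0.50), beside a median distance of 1.24 to all candidates. RfC4 had the same 3 neighbours, Sps1 (0.30), CG3036 (0.31) and CG18853 (0.33). Rca1 was nearest to Sps1 (0.24), CG18853 (0.26) and the Mediator subunit gene MED22 (0.36). Caf1-55 lay nearest to the cytokine receptor gene dome (0.32), TfIIFalpha, of a general transcription factor (0.34), and MED22 (0.37). Skp2 stood with Pepck1, for an enzyme of gluconeogenesis (0.22), the kinase gene Snrk (0.27) and for, which encodes a cGMP-dependent protein kinase (0.32). PolZ1 had no close neighbour, with Nmt (an N-myristoyltransferase) at 0.47 and mrn, a TFIIH subunit gene, at 0.50. Among the 6 genes, RfC4 and Rca1 were the most alike pair (0.32), and RPA2 and Skp2 the least (0.89).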

How the data were processed

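The deposited table holds 14010 probe sets, 44 of them array controls, as 1-colour intensities on a linear scale from 12 arrays, 3 per group. How the scanner images were read, corrected for background and normalized is not stated in the labels used here. The deposited intensities had trimmed means (2% at each end) alike to within 0.00230%, so no further scaling was applied. Such scaling removes a change shared by all probe sets. Probe-set identifiers were looked up, ignoring case, among gene synonyms in RefSeq (assembly Release 6 plus ISO1 MT), which named 133 probe sets (131 genes).

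Control probe sets were left out, and log2(intensity + 13.3) was taken, the pseudocount being the 25th percentile of the table, which understates the changes of weak genes. Probe sets above 29.9 (the 40th percentile) on at least 3 of 12 arrays were kept: 10139, with 107 named genes. limma 3.58.1 in R 4.3.3 fitted 4 group means (eBayes with trend, 8 residual and 7.26 prior degrees of freedom), with 2-sided tests and Benjamini-Hochberg adjustment over all tested probe sets. Precision is limited by the number of arrays, with a median half-width of 0.725 (log2) for the 95% interval.

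The code was tested on simulated data. The 6 genes, the lists, the tests and the alternatives were chosen with earlier results of these data known. The naming rule took the 6 genes, other listed genes that could be named, and the 3 named genes nearest to each in pattern, 1 of which is not reported here. Alternatives were another normalization, other pseudocounts and filters, no trend, array weights, the replicate number as a block, the compared groups alone, and arrays left out. Deviations from group means of same-numbered arrays correlated at 0.130 to 0.421 between X-ray and control arrays of stages 9 to 11. These values are above the limit of 0.1 used here, but pairing is not clear for every number. X-ray array 2 correlated at 0.130 with control array 2 and at 0.128 with control array 1. Over all pairs of groups, arrays of different numbers reached 0.140. In the other comparisons the lowest correlation of same-numbered arrays was under 0.1.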

Additional observations from a re-analysis of the deposited data

Results flagged for a closer look

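RfC4 was picked out because its irradiated array read above the same-numbered control array in 3 of 3 pairs at stages 9 to 11 and below it in 3 of 3 pairs at stages 13 to 15. The log2 differences within numbers 1, 2 and 3 were −0.21, −0.41 and −0.23 at stages 13 to 15, and 0.21, 0.03 and 0.11 at stages 9 to 11. The test of the difference itself gave −0.40 ± 0.33 (SE, adjusted p = 0.995 in limma) and did not pass. How many of all tested probe sets have such signs was not counted. Same-numbered X-ray and control arrays of stages 13 to 15 correlated at 0.0998 to 0.435, so their pairing is not established for every number.

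Rca1 showed the same arrangement of signs, with −0.68, −0.17 and −0.15 at stages 13 to 15, and 0.11, 0.23 and 0.21 at stages 9 to 11. The test of the difference gave −0.52 ± 0.32 (SE, adjusted p = 0.995) and did not pass either.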

How the results depend on the processing

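The counts of called genes stayed within 1.5 times in all 22 alternatives (21 for the comparison of the X-ray effects): 4 to 6 of the 6 in X-ray treated embryos and 4 to 5 in control embryos for the stages, and 0 throughout for X-rays. Without 1 array both stage counts were 4 to 5. RPA2, RfC4, Caf1-55 and Rca1 passed in every alternative for both stage comparisons, with adjusted p of at most 0.021 and log2 differences of −2.51 to −0.86 in X-ray treated and −2.48 to −1.07 in control embryos. No stage value changed sign. PolZ1 in X-ray treated embryos passed under quantile normalization (adjusted p = 0.0448), the stricter filter of 67.7 (0.0474), array weights (0.0348) and the 2 compared groups alone (0.0288). Skp2 in control embryos passed without all arrays numbered 3 (−0.80, adjusted p = 0.0139).

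With the replicate number as a block, the stage calls became 6 of 6 in X-ray treated embryos (Skp2 adjusted p = 0.0156, PolZ1 0.0406) and 5 of 6 in control embryos (Skp2 0.00088), among 2881 and 3180 probe sets in place of 2390 and 2719. Across stages, same-numbered arrays of 1 treatment correlated at 0.0387 to 0.210 over all tested probe sets, some under the limit of 0.1 used here to call arrays paired. The array controls did move with the number, and over all groups an array correlated best with its own number in 30 of 36 cases. The block changed no X-ray call of the 6 genes.

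Among these alternatives, the sign changed only for X-ray values that had not passed. Without 1 array, RPA2 ran from −0.074 to 0.16 at stages 9 to 11, from −0.023 to 0.065 at stages 13 to 15 and from −0.14 to 0.092 for their difference. Skp2 ran from −0.42 to 0.13 at stages 9 to 11 and from −0.052 to 0.39 at stages 13 to 15, and PolZ1 from −0.89 to 0.063 at stages 13 to 15 and from −0.71 to 0.24 for the difference. Without the arrays numbered 3, RPA2 had −0.052 at stages 9 to 11 and 0.12 for the difference. The cause was not tested. Over all probe sets, the X-ray calls at stages 9 to 11 numbered 0 to 9 over the alternatives in place of 2, those at stages 13 to 15 0 to 1 in place of 0, and those for the difference 0 to 12 in place of 2. The planned use of another probe set per gene gave no value, since each gene had 1. PolZ1 is limited by its low signal at stages 13 to 15: its stage difference ran from −1.48 to −0.70 in X-ray treated and from −1.04 to −0.49 in control embryos over the pseudocounts.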
